A study of Mus musculus with 2 samples.

Results

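The potassium channel genes are the 98 genes, of 31053 in the deposited matrices, whose mouse symbol has the form Kcn followed by letters and a number. They were chosen by symbol alone, so the set holds the pore-forming subunits, their auxiliary subunits and 5 non-coding transcripts named after a channel gene. By role they are 30 voltage-gated subunits, 10 silent subunits that only modify other voltage-gated channels, 15 inward rectifiers and 14 two-pore channels. The others are 6 calcium-activated and 2 sodium-activated channels, 16 auxiliary subunits and the 5 non-coding transcripts. Kcnu1 is counted with the calcium-activated channels by gene family and not by how it opens. They were measured in Cell_culture, single cells from dorsal root ganglia (DRGs) of male and female Swiss mice 2 weeks old. Cervical, thoracic and lumbar ganglia were dissociated, plated on laminin, kept for 3 days and detached with trypsin. Acutely isolated ganglia were not analysed here, and every comparison is between cell types of the same 2 libraries, A and B, which were run on 1 chip. Whether A and B hold different mice or dishes is stated in neither the labels nor the methods. Library was a term in the fit. The p-values rest on how unevenly the class differences ran in A and B and on count noise, with the spread estimated partly across genes. The unevenness between A and B may be technical.

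Potassium channels let potassium ions pass the cell membrane and so set the resting potential and end the action potential. Voltage-gated channels open on depolarisation, calcium- and sodium-activated channels open when those ions enter, two-pore channels carry the leak at rest, and inward rectifiers pass potassium most easily into the cell. In sensory ganglia the satellite glial cells (SGCs) that wrap each neuron are known for the inward rectifier encoded by Kcnj10, which takes up potassium released by firing neurons, and which is used as an SGC marker. Schwann cells, the glia of the nerve fibre, sit on axons whose voltage-gated channels of the Kcna family cluster beside the nodes.

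Of 10948 barcodes, 10730 held at least 200 genes and at most 10% mitochondrial UMIs (unique molecular identifiers, each standing for 1 captured transcript), and the libraries held 40355401 (A) and 38945848 (B) UMIs. Clustering without the potassium channel genes gave 810 neurons, 5952 resting glia, 3495 dividing glia, 390 fibroblasts and 83 macrophages, with median depths of 28331.5, 4080, 6872, 11529 and 9203 UMIs. Of the kept barcodes, 7 occur in both libraries, and doublets were not removed. The 10 neuron markers summed to 13800 CPM in A and 13900 in B in neurons and to 355 and 285 in resting glia. Macrophages are the smallest class, and the same markers summed there to 121 CPM in A and 739 in B. The unit of these levels is CPM, the UMIs of a gene per 1000000 UMIs, summed per class and library. UMIs count transcript ends, so levels are not scaled by length. A level is compared between cells for 1 gene and not between genes, while sums over genes add their CPM.

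Potassium channel transcripts were found in every class. The 98 genes summed to 1630 ± 5.84 CPM in neurons (SD, n = 2 libraries), 1110 ± 14.1 in resting glia, 855 ± 28.6 in dividing glia, 381 ± 62.2 in macrophages and 273 ± 31.4 in fibroblasts. Neurons spread this total over the most genes: 33 reached 10 CPM in both libraries, against 11 in resting glia, 9 in dividing glia, 8 in macrophages and 2 in fibroblasts. By mean level, 62 genes were highest in neurons, 12 in resting glia, 6 in dividing glia, 8 in fibroblasts and 5 in macrophages. The other 5, Kcne2, Kcnj1, Kcnj5, Kcna7 and Kcna10, had no UMI in any class. These counts take in genes with few UMIs, and no share over all genes stands beside them. Neurons also held more genes of any kind per cell, with a median of 5908 against 1964 in resting glia. A test could be fitted for 63 genes, since the rest had too few UMIs, and a gene that was kept only for its level in 1 class had to differ from the others, so the counts below describe the tested genes.

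**Figure D1:**
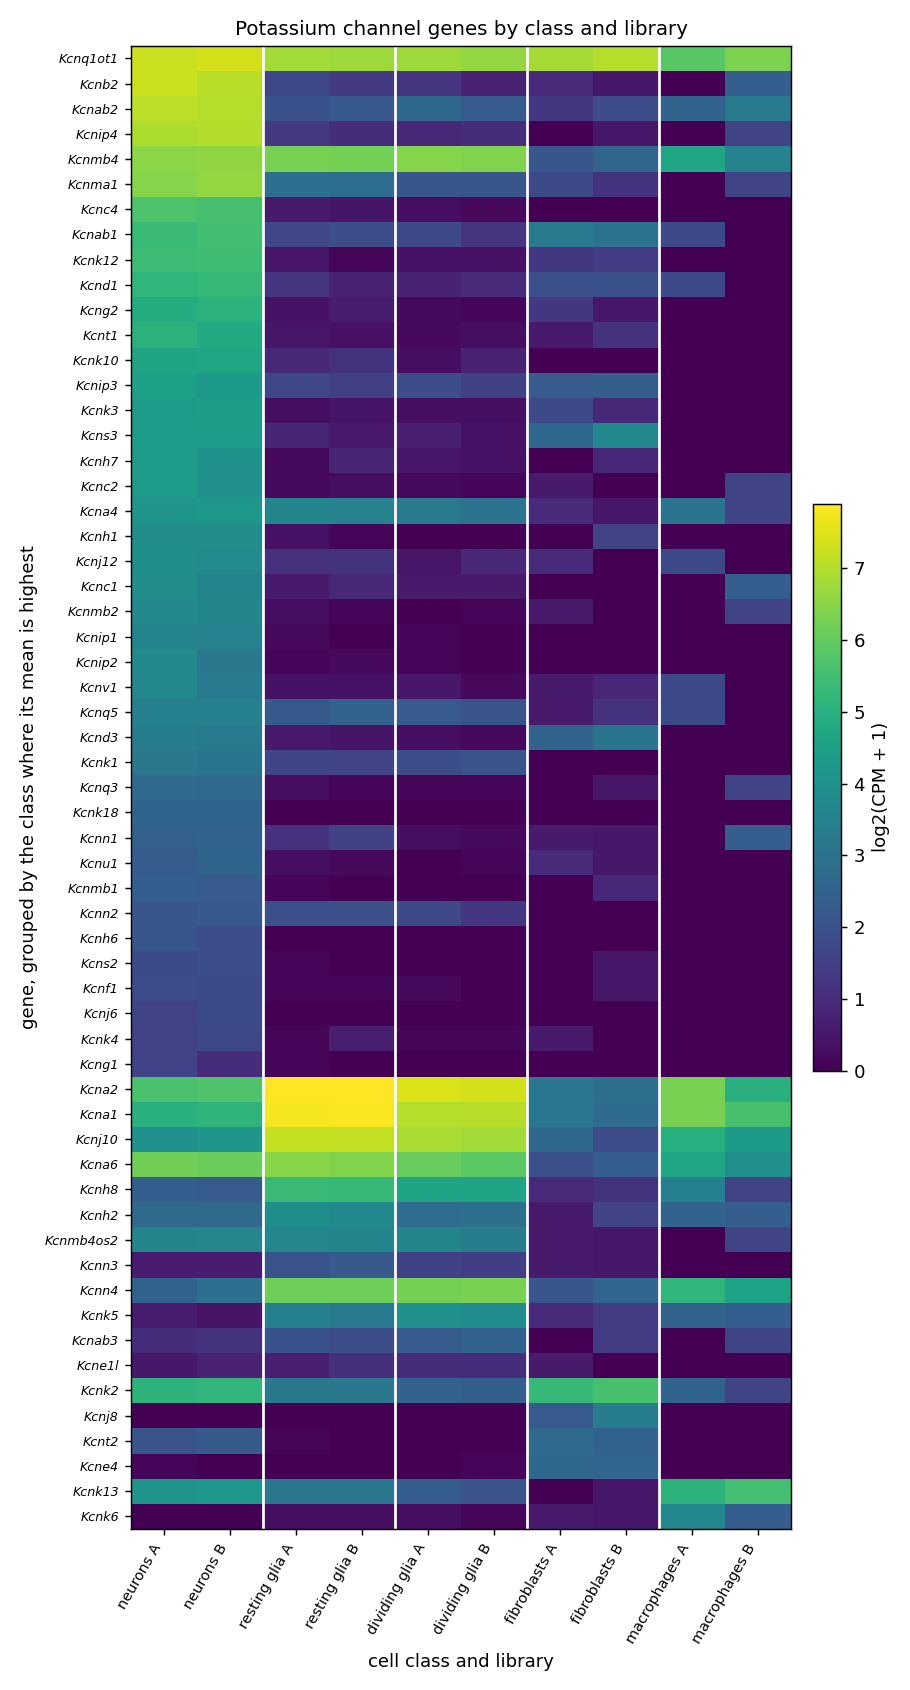
Level of 59 tested potassium channel genes (rows) in each class and library (columns) as log2(CPM + 1), from dark (0) to yellow. Rows are grouped by the class with the highest mean: the long upper block is highest in neurons, and Kcna2, Kcna1, Kcnj10, Kcnn4 and Kcnh8 stand out in both glial classes.

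Kcnj10 (ENSMUSG00000044708, chromosome 1 from 172341210 to 172374085 in GRCm38, forward strand) was highest in resting glia. Resting glia held 145 CPM in A and 142 in B, and dividing glia 117 and 111. Macrophages held 30.9 and 18.7 CPM, neurons 15.1 and 16.4 and fibroblasts 5.19 and 2.47. Glia lay above all other classes in both libraries, and macrophages lay close to neurons in B. Against resting glia Kcnj10 was lower in neurons by a log2 fold change of -3.17 (standard error 0.075, edgeR adjusted p = 3.32e-81), in fibroblasts by -5.00 (0.191, adjusted p = 1.47e-54) and in macrophages by -2.24 (0.255, adjusted p = 8.34e-14). After drawing 2000 UMIs from each cell, 23.6% ± 0.485 of resting glia and 19.9% ± 0.935 of dividing glia held a UMI of Kcnj10, against 4.28% ± 0.586 of neurons, 3.61% ± 1.58 of macrophages and 0.470% ± 0.201 of fibroblasts. Without that step the neurons, with a median of 28331.5 UMIs, reached 27.3% and resting glia, with 4080, reached 40.3%.

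The Kcnj10 found outside glia was near the level that other glial genes had there. As percent of the resting glial level, the glial markers Sox10, Fabp7, Erbb3, Cdh19 and Apoe lay between 4.66 and 13.8 in neurons and S100b, which sensory neurons also express, at 89.1. On the same scale Kcnj10 lay at 11 in neurons and Kcnh8, a voltage-gated channel of the ether-a-go-go family, at 10.4, both within that range. Kcna1 at 14.6, Kcna2 at 21.2 and Kcna6 at 81.5 lay above it. In macrophages Kcnj10 lay at 17.3 and Kcnh8 at 15.1, beside 18.5 for Sox10 and 20.1 for Erbb3. The part of glial transcripts in the levels of neurons was not tested.

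Other inward rectifiers were close to absent from glia. Kcnj16, whose product pairs with that of Kcnj10 in several epithelia and in brain glia, had 5 UMIs in all cells. Kcnj9, the neighbour of Kcnj10 at a distance of 11.9 kb on chromosome 1, had 28. Kcnj12, a strong rectifier of muscle and neurons, was highest in neurons, with 14.2 CPM in A and 12.9 in B against 1.19 and 1.25 in resting glia. Kcnj8, the pore of the ATP-sensitive channel of vascular cells, had 30 UMIs, all of them in fibroblasts (3.77 CPM in A and 9.07 in B). That class also holds markers of pericytes and endothelial cells. The 15 inward rectifiers summed to 146 ± 2.52 CPM in resting glia, of which Kcnj10 made up 143.

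Glia also carried voltage-gated channels of the Kcna family, which form delayed rectifiers that open near the resting potential. Kcna1 stood at 222 CPM in A and 224 in B in resting glia and at 31.2 and 33.9 in neurons (log2 fold change of neurons over resting glia -2.76, standard error 0.059, edgeR adjusted p = 9.98e-87). Kcna2 stood at 237 in both libraries in resting glia and at 48.5 and 51.7 in neurons (-2.22, 0.054, adjusted p = 3.27e-79). Kcna6 was nearly level between them, with 89.2 and 82.9 CPM in resting glia and 71.9 and 68.4 in neurons. Its difference of -0.27 passed in edgeR (adjusted p = 8.75e-06) but neither with DESeq2 (-0.11, adjusted p = 0.332) nor with RLE scaling (-0.11, adjusted p = 0.069), which moved the median of all genes in neurons by 0.16. Kcna1 and Kcna6 lie 61.9 kb apart on chromosome 6. Kcna5, on the same stretch, had 10 UMIs, and Kcna3 and Kcna10, the neighbours of Kcna2 on chromosome 3, had 10 and 0. Kcnn4, a calcium-activated channel of non-excitable cells, was also glial, with 70.6 and 69.5 CPM in resting glia and 4.65 and 6.39 in neurons (-3.66, 0.11, adjusted p = 6.22e-68), and so was Kcnh8 with 38.9 and 37.9 against 4.13 and 3.86 (-3.23, 0.137, adjusted p = 4.04e-50).

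**Figure D2:**
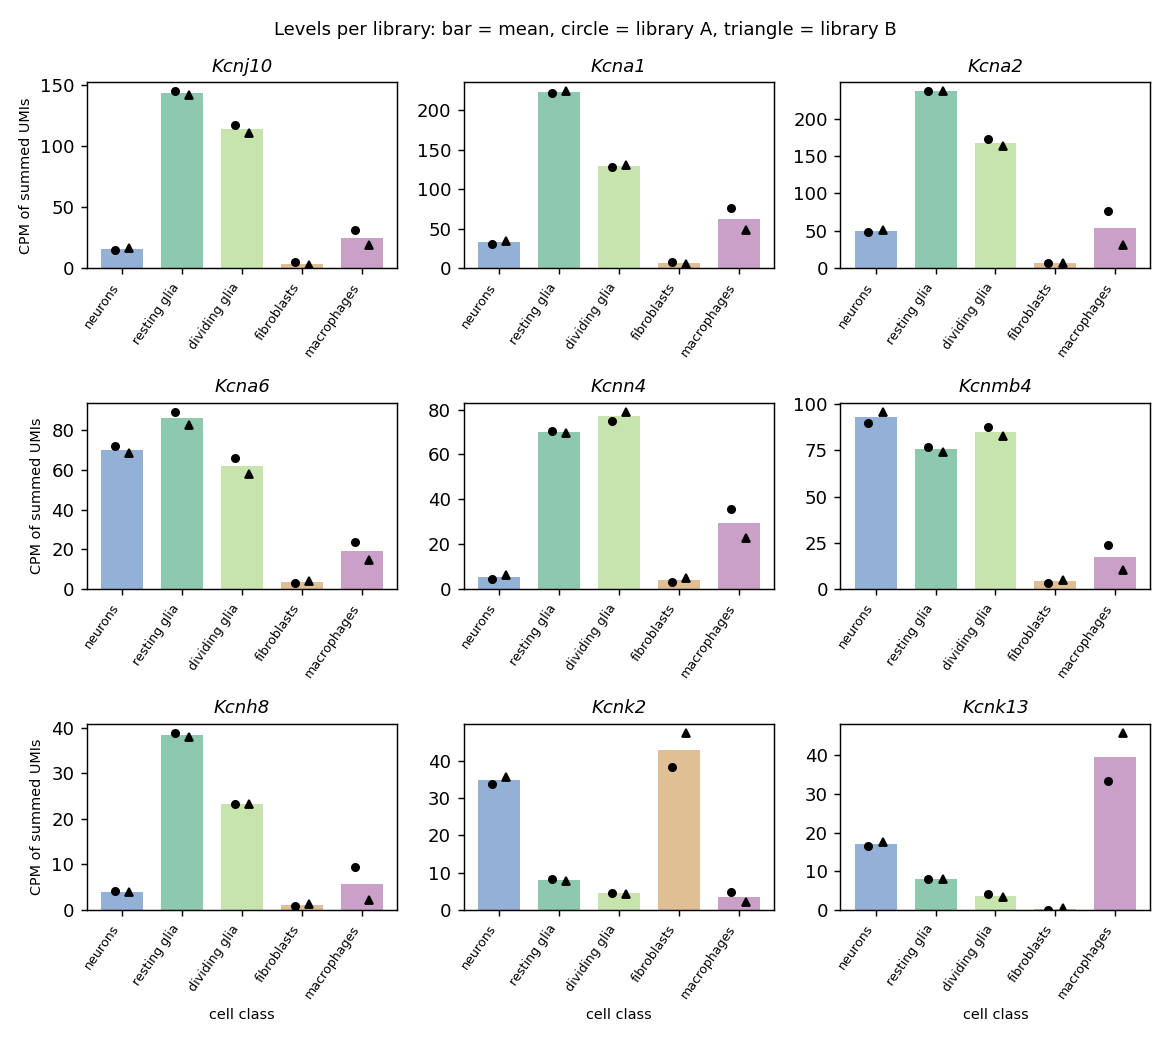
CPM of 9 potassium channel genes in the 5 classes, with bars for the mean and symbols for libraries A and B. Kcnj10, Kcna1, Kcna2, Kcnn4 and Kcnh8 are highest in glia, Kcna6 and Kcnmb4 are near level between neurons and glia, Kcnk2 is highest in fibroblasts and Kcnk13 in macrophages.

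The glia were not uniform. Clustering gave 2 resting clusters, here called cluster 0 (3735 cells, led by Ccnd2, Apoe and Ndrg2) and cluster 1 (2217 cells, led by Tgfbi, Igfbp5 and Atf3). Fabp7, the SGC marker, stood at 1310 ± 28.4 CPM in cluster 0 and 195 ± 10.9 in cluster 1, and Ngfr, the neurotrophin receptor of repair Schwann cells, at 41.2 ± 2.33 and 208 ± 0.822. Kcnj10 was high in cluster 0, with 183 CPM in A and 181 in B against 72.8 and 72.1 in cluster 1 (log2 fold change 1.29, standard error 0.06, edgeR adjusted p = 1.34e-46). Kcna1 ran the other way, with 120 and 122 CPM in cluster 0 and 418 and 406 in cluster 1 (-1.80, 0.044, adjusted p = 3.6e-81). Both genes mark glia against all other classes, yet they separated the glia in opposite directions.

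Of 27 potassium channel genes tested among the glial clusters, 11 were higher in cluster 0 and 7 lower. Of 11808 genes tested in all, 20.7% were higher and 17.7% lower. The median log2 fold change was 0.06, against 0.02 over all genes tested. Among genes that reached 10 CPM, those higher in cluster 0 beside Kcnj10 included Kcnh8 (1.14), Kcnn4 (1.05), Kcnmb4, an auxiliary subunit of the large-conductance calcium-activated channel (0.99), and its antisense transcript Kcnmb4os2 (0.86). Those higher in cluster 1 beside Kcna1 were Kcnk13, a two-pore channel inhibited by halothane (-1.92), Kcna4, an A-type channel (-0.91), Kcnh2, the channel of the rapid delayed rectifier in heart (-0.64), and Kcnq1ot1, an imprinted antisense transcript (-0.44). The Kcnh2 call was lost with DESeq2 (adjusted p = 0.121). Kcnmb4os2 overlaps Kcnmb4 by 716 bases on the opposite strand, and reads of the pair cannot be told apart where counting ignores strand. Kcna2 and Kcna6 were higher in cluster 0 by 0.41 and 0.55, so Kcna1 on the one side and these genes on the other differed in direction.

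The promoters of 3 genes that were higher in cluster 0 are printed here because their transcripts were higher in the same cluster. They are the 250 bases before the RefSeq start sites in GRCm38.p6, 5′ to 3′, all on the forward strand: chr1:172340960-172341209 for Kcnj10, chr7:24370013-24370262 for Kcnn4 and chr17:52602459-52602708 for Kcnh8. Capitals mark the GC box CCGCCC, searched on both strands. The Kcnh8 window also overlaps an exon of the antisense transcript Gm27217.
Kcnj10: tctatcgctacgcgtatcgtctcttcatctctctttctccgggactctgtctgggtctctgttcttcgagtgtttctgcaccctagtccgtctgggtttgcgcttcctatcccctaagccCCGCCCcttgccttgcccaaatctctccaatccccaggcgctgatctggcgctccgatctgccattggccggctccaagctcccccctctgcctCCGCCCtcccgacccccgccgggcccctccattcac
Kcnn4: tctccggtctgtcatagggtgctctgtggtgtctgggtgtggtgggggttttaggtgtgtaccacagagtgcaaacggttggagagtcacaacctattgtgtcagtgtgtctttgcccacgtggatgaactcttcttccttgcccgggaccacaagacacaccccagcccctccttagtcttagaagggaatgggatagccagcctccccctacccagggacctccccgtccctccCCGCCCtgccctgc
Kcnh8: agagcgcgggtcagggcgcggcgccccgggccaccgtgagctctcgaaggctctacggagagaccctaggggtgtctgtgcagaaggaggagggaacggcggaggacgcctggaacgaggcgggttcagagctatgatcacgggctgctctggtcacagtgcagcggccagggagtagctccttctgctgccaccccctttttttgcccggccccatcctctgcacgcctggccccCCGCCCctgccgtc
The window of Kcnj10 held 2 GC boxes and those of Kcnn4 and Kcnh8 held 1 each. The GC content was 62.0%, 58.8% and 68.4%. A GC box was present in 32.7% of all 32851 promoters of the same length and in 44.8% of the 96 promoters matched to 71 of the 98 potassium channel genes. The core ACAAAG, to which Sox factors such as the glial Sox10 are known to bind, was in none of the 3 windows on either strand, in 16.5% of all promoters and in 11.5% of those of the potassium channel genes.

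Dividing glia held less of most glial channels. Kcna1 fell by 0.73 on the log2 scale, from 222 CPM in A and 224 in B to 128 and 131 (standard error 0.042, edgeR adjusted p = 5.67e-35). Kcna2 fell from 237 in both to 173 and 163 (-0.44, 0.041, adjusted p = 9.29e-19), Kcna6 from 89.2 and 82.9 to 66.1 and 58.0 (-0.42, 0.057, adjusted p = 1.15e-10) and Kcnj10 from 145 and 142 to 117 and 111 (-0.28, 0.046, adjusted p = 8.26e-08). Each of these 4 genes was lower in both libraries without overlap. Kcnh8 (-0.67), Kcnh2 (-1.02) and Kcna4 (-0.42) were also lower, the last not with DESeq2 (adjusted p = 0.128). Within glia alike in Fabp7, described below, Kcnh8 had no call in Fabp7-low glia (-0.34, adjusted p = 0.106) and Kcna4 none in Fabp7-high glia (-0.40, adjusted p = 0.0698). In all 16 of the 63 tested genes were lower and 5 higher, while 20.6% of all genes tested were lower and 24.1% higher (19.4% and 22.4% of the 11137 genes not used to draw the clusters). The median log2 fold change was -0.48, against -0.02 over all genes tested. The comparison shares its resting glia with those of the other classes. By role, 10 of 21 voltage-gated subunits were lower and none was higher. The 63 genes include many that are highest in neurons. The 10 neuron markers were lower too, at 240 CPM in A and 217 in B against 355 and 285 in resting glia. The part of neuronal transcripts in the median and in these counts was not tested. For the 27 genes tested among the glial clusters, with equal weight per cluster, the median was -0.44, against -0.03 over all genes tested. At the unadjusted level the 21 calls stood among 24 genes with p under 0.05, and DESeq2 called 12 lower.

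The genes that were higher in dividing glia were few. Kcnk5, a two-pore channel known in lymphocytes and epithelia for a part in proliferation and transport, stood at 14.9 CPM in A and 13.4 in B against 9.81 and 8.36 in resting glia (log2 fold change 0.69, standard error 0.133, edgeR adjusted p = 3.08e-06). Kcnmb4 stood at 87.5 and 83.0 against 77.1 and 74.2 (0.23, 0.055, adjusted p = 0.000235), and Kcnn4 at 75.0 and 78.9 against 70.6 and 69.5 (0.19, 0.057, adjusted p = 0.00297). The other 2 were Kcnab2 and Kcnab3, which encode the beta subunits of Kcna channels, at levels under 6 CPM. None of the 5 passed in DESeq2, where 1 gene was higher at an unadjusted p under 0.05 and 7 had no adjusted p. Within Fabp7-high glia, described below, Kcnmb4 stood at 0.02 (adjusted p = 0.757) and in Fabp7-low glia at 0.29 (adjusted p = 0.0225).

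**Figure D3:**
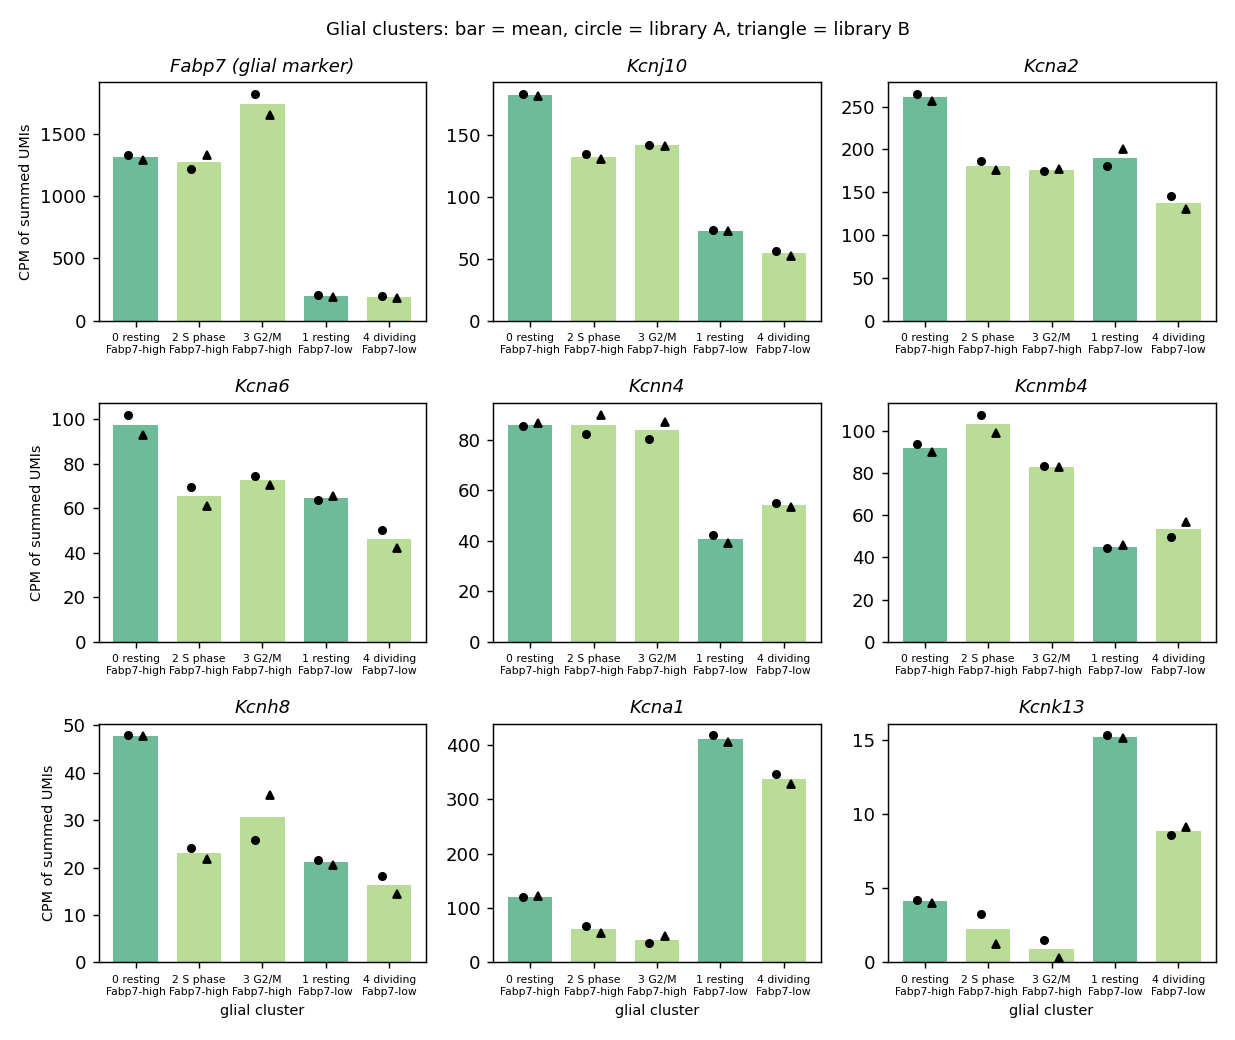
CPM in the 5 glial clusters, with bars for the mean and symbols for libraries A and B. Dark bars are resting and light bars dividing clusters. Fabp7 and Kcnj10 are high in clusters 0, 2 and 3 and low in 1 and 4, while Kcna1 and Kcnk13 are high in 1 and 4.

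The dividing glia fell into 3 clusters of the same 2 kinds. Cluster 2 (1569 cells, led by histone genes) and cluster 3 (1011 cells, led by mitotic genes such as Cenpf and Ccnb1) held much Fabp7, at 1280 ± 81.2 and 1740 ± 122 CPM, and cluster 4 (915 cells, led by Fxyd6 and Apod, with Mki67) held 193 ± 12.8. Division was therefore also compared within glia alike in Fabp7, a comparison chosen after seeing the data. Kcnj10 was lower in dividing glia to a like extent in both kinds, by -0.40 (standard error 0.043, edgeR adjusted p = 4.17e-16) in Fabp7-high and by -0.38 (0.094, adjusted p = 0.000463) in Fabp7-low glia, and the difference between these was -0.03 ± 0.104 (standard error). Kcnj10 stood at 134 CPM in A and 130 in B in cluster 2, 142 and 141 in cluster 3 and 56.4 and 52.4 in cluster 4. Among dividing clusters it was lower in Fabp7-low than in Fabp7-high glia by -1.26 (0.075, adjusted p = 5.45e-35). In that comparison 6 of 27 genes were higher and 9 lower (background 20.8% and 17.1%), and Kcna1 was higher by 2.80 (0.058, adjusted p = 2.33e-91).

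Kcna1 differed by both division and Fabp7 level. In Fabp7-high glia it was lower in dividing than in resting cells (log2 fold change -1.24, standard error 0.061, edgeR adjusted p = 6.35e-44), with 67.7 CPM in A and 54.4 in B in cluster 2 and 36.4 and 47.9 in cluster 3. In Fabp7-low glia the log2 fold change was -0.24 (0.044, adjusted p = 1.06e-06), with 347 and 329 CPM in cluster 4. The difference between these contrasts was itself past the threshold, at -1 (0.077, adjusted p = 4.03e-24). Kcnn4 differed as well (-0.47, 0.122, adjusted p = 0.00293): it was higher on division in Fabp7-low glia, by 0.46, with 54.8 and 53.5 CPM in cluster 4 against 42.1 and 39.1 in cluster 1, and stood at -0.01 in Fabp7-high glia. In the Fabp7-high clusters no rise of Kcnn4 was detected (standard error 0.056, adjusted p = 0.899). Kcnk5 was higher in both kinds, by 0.57 (adjusted p = 0.00098) and 0.71 (adjusted p = 0.00645).

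Of the 27 genes tested, 14 were lower and 2 higher on division in Fabp7-high glia (background 28.3% lower and 23.5% higher of all genes tested), and 9 were lower and 3 higher in Fabp7-low glia (18.1% and 21.0%). Only 3 differed between the contrasts, 2 lower and 1 higher (7.99% and 4.08%), namely Kcna1, Kcnn4 and Kcnq1ot1. With equal weight for each glial cluster, 14 genes were lower and 3 higher (29.3% and 27.1%).

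**Figure D4:**
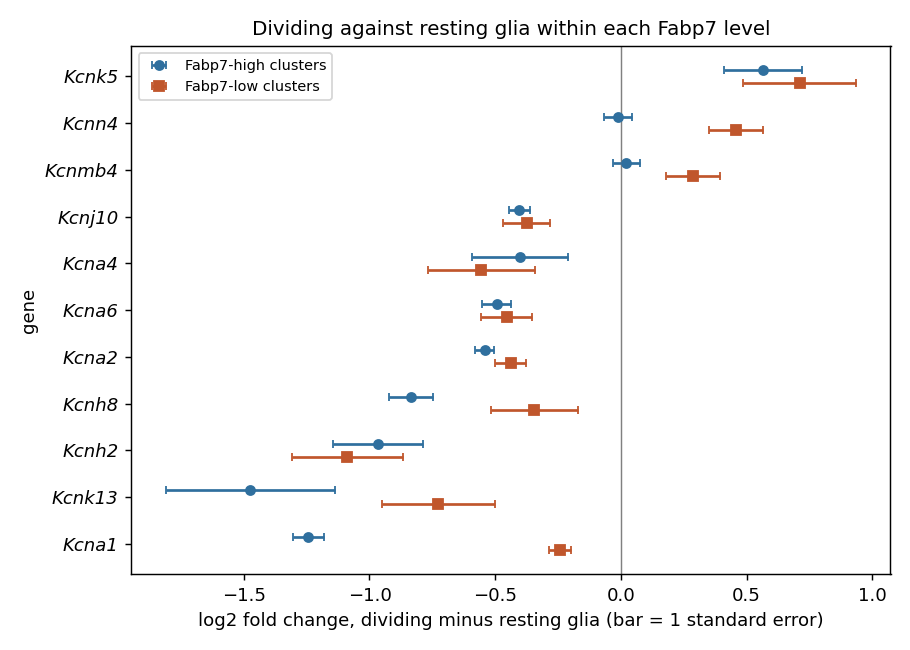
Log2 fold change of dividing over resting glia with 1 standard error, for 11 potassium channel genes within Fabp7-high (circles) and Fabp7-low (squares) clusters. Most points lie left of 0 in both kinds, Kcna1 lies at -1.24 and -0.24, and Kcnk5 lies right of 0 in both.

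Neurons held the broadest set. Of the 63 tested genes 45 were higher and 12 lower in neurons than in resting glia, while 40.6% of all 14467 genes tested were higher and 40.3% lower (35.9% and 43.0% of those not used to draw the clusters). The median log2 fold change was 4.17, against -0.01 over all genes tested. By role, 14 of 21 voltage-gated, 6 of 6 silent, 8 of 10 two-pore, 9 of 12 auxiliary, 3 of 6 calcium-activated and 2 of 2 sodium-activated genes were higher. Genes kept only for their level in neurons had to be higher there, so the median and these counts are partly set by that selection. The breadth of the neuronal set rests on the 33 genes at 10 CPM in both libraries, against 11 in resting glia. That count has no share over all genes beside it, so the breadth is not shown to be particular to potassium channel genes. The 12 that were lower include the glial genes named above and also Kcnk5, Kcnh2, Kcnn3 and Kcnab3.

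Among the voltage-gated subunits, Kcnb2, a delayed rectifier of the soma, stood at 151 CPM in A and 132 in B in neurons and at 2.29 and 1.54 in resting glia. The log2 fold change was 6.22 (standard error 0.109, edgeR adjusted p = 4.36e-98). Kcnc4, a high-threshold channel that inactivates fast, stood at 50.5 and 46.3 CPM in neurons and under 0.5 in glia (6.82), and Kcnd1, an A-type channel, at 35.4 and 36.9 (5.13). Kcnq3, a channel of the M-current that restrains repetitive firing, stood at 5.77 and 5.62 in neurons and at 0.237 and 0.0733 in resting glia. The silent subunits Kcng2, with 28.7 and 32.7 CPM, and Kcns3, with 19.3 in both libraries, were neuronal too (6.17 and 4.97). In both libraries each of these lay above glia without overlap.

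Channels of the leak and of ion-activated currents followed the same order. Kcnk12, a two-pore subunit that is silent on its own, stood at 41.2 CPM in A and 42.9 in B in neurons and at 0.396 and 0.0733 in resting glia (log2 fold change 7.45, standard error 0.227, edgeR adjusted p = 7.91e-67). Kcnk10, a leak channel opened by lipids, and Kcnk3, one closed by acid, stood at 23.5 and 19.7 CPM in A and 24.6 and 20.3 in B, both at or below 1.25 in resting glia. Kcnma1, the pore of the large-conductance calcium-activated channel, stood at 86.9 and 96.2 CPM in neurons against 6.41 and 6.23 in resting glia (3.88, 0.094, adjusted p = 1.09e-79). Its auxiliary subunit Kcnmb4 was near level, with 90.0 and 95.8 against 77.1 and 74.2 (0.31, 0.057, adjusted p = 2.59e-07). Resting glia thus held Kcnmb4 near its neuronal level and Kcnma1 far below its own neuronal level. Kcnt1, a sodium-activated channel, stood at 32.6 and 27.6 CPM in neurons and under 0.5 in glia (6.41). Of the auxiliary subunits, Kcnip4, a calcium-binding partner of A-type channels, stood at 120 and 127 (6.62, 0.121, adjusted p = 9.41e-96) and Kcnab2 at 137 and 129 (5.40, 0.1, adjusted p = 5.57e-95). Kcnq1ot1 was found in every class, from 57.0 CPM in macrophages of A to 165 in neurons of B, while Kcnq1 itself, the gene it lies within, had 2 UMIs.

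The neuron markers were low in resting glia. The 10 neuron markers in resting glia lay between 0.505% and 4.04% of their neuronal level. Of 27 tested potassium channel genes that were highest in neurons at 10 CPM or more, 18 lay at or below 4.04% in resting glia. The 9 above it were Kcna4, Kcnip3, Kcnab1, Kcnc1, Kcnq1ot1, Kcnmb4, Kcnma1, Kcnj12 and Kcnk10. The part of neuronal transcripts in the glial levels was not tested.

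The neurons were not uniform either. Clustered again without the potassium channel genes, they gave 10 clusters, of which 2 (75 and 27 cells, median 1353 and 4806 UMIs) were shallow and were left out here. The other 8 are called by number and a leading gene: 0 (Anxa1, 185 cells), 1 (S100b, 137), 2 (Penk, 94), 3 (Mrgpra3, 82), 5 (Ly6c1, 72), 6 (Pnoc, 66), 7 (Rassf9, 40) and 8 (Mrgprd, 32). The leading genes of cluster 6 are mostly macrophage genes, with Lyz2 at 2.35 CPM in A and 857 in B, beside Pnoc and Trpm8, so it is not taken for a neuron type, and the part of macrophage transcripts in its values was not tested. Calca, which encodes the peptide CGRP of peptidergic neurons, reached 8990 CPM in cluster 1 and 8520 in cluster 5. A cluster was tested against the mean of the others, for 51 potassium channel genes of 10566 genes in all. Cluster 6 was part of that mean in every comparison but its own.

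The Calca-rich clusters 1 and 5 were both high in several voltage-gated and leak channels. Kcnc4 reached 197 CPM in A and 218 in B in cluster 5 (log2 fold change 3.42 over the mean of the others, standard error 0.154, edgeR adjusted p = 3.64e-23) and 72 and 71.7 in cluster 1, beside 88.3 and 80.5 in cluster 8 and 3.13 and 2.65 in cluster 2. Kcnk3 reached 84.9 and 91.6 in cluster 5 (5.18, 0.288, adjusted p = 1.57e-19) and 34.9 and 53.3 in cluster 1 (4.04, 0.305, adjusted p = 3.52e-15). Kcnk2, a leak channel opened by stretch and heat, reached 93 and 142 in cluster 5 and 76.8 and 91.3 in cluster 1. Cluster 1 was the highest for Kcnv1, a silent subunit, at 39.3 and 31.9 CPM (4.36), for Kcnq5, an M-current channel, at 32.2 and 35.6 (4.14), and for Kcnd1 at 81.2 and 99.9 (2.53). In cluster 1, 25 genes were higher and 7 lower (background 20.8% and 15.2%), and in cluster 5, 18 and 11 (15% and 13.1%).

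Kcnip4 differed widely among the neurons. It stood at 290 CPM in A and 282 in B in cluster 8, 257 and 290 in cluster 7, 205 and 211 in cluster 0, 133 and 143 in cluster 2 and 103 and 83.9 in cluster 3. It stood at 24.7 and 24.5 in cluster 1, 15.3 in both libraries in cluster 6, and 1.81 and 5.16 in cluster 5. The log2 fold change was 2.53 (standard error 0.126, edgeR adjusted p = 2.79e-21) for cluster 8 and -4.96 (0.299, adjusted p = 1.47e-18) for cluster 5. In the Mrgprd cluster 8, named for a receptor of non-peptidergic nociceptors, the related Kcnip2 (95.5 and 36.6 CPM, 4.11) and Kcnip1 (61.3 and 40.2, 3.93) were also higher, as was the silent subunit Kcnf1 (34.3 and 18.3, 5.86). Here 21 genes were higher and 1 lower (background 11.3% and 7.43%). The libraries of cluster 8 were far apart in Kcnip2, and B lay just above the 35.1 and 28 CPM of cluster 3.

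Cluster 3, led by the itch receptor gene Mrgpra3, held Kcnk18, a two-pore channel regulated by calcineurin. It reached 27.1 CPM in A and 28.8 in B (log2 fold change 5.41, standard error 0.436, edgeR adjusted p = 4.1e-14), followed by 7.21 and 14.6 in cluster 8. Kcnmb1 (4.33), Kcnn2 (3.18) and Kcng2 (2.31, at 48.6 and 77.8 CPM) were higher there too. Kcna1 and Kcnab1 were lower (-2.88 and -3.84). In cluster 3, 21 genes were higher and 11 lower (background 21.3% and 16.8%).

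Cluster 2, the Penk cluster, was highest by mean level for Kcnj6, a G-protein-gated inward rectifier, at 10.2 and 12.3 CPM (4.85, standard error 0.707, edgeR adjusted p = 3.27e-07), for Kcnk13 at 35.2 and 53.8 and for Kcnk1 (2.51), while 12 genes were higher and 14 lower (20.8% and 15.3%). It was also high for Kcna1, at 76.7 and 83.8 CPM (2.20, 0.188, adjusted p = 1.65e-13). The glial marker Sox10 stood at 55.3 CPM in cluster 2, 57.8 in cluster 6 and 37.7 in cluster 0, and between 2.78 and 22.6 in the other 5, and the part of glial transcripts in the Kcna1 level was not tested. Kcnj10 stood at 0.941 CPM with 2.78 of Sox10 in cluster 7 and at 27.7 with 57.8 in cluster 6. Clusters 2 and 6 were close in Sox10, with Kcna1 at 80.3 and 40.5 CPM.

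The other clusters tested were 0, 6 and 7. In cluster 0, where Kcnab1 (65.5 CPM, log2 fold change 2.00) and Kcnmb4 (161 CPM, 1.37) stood out, 16 genes were higher and 10 lower (background 17.9% and 10.4%), and DESeq2 called 4 lower. In cluster 6, where Kcnmb2, an inactivating auxiliary subunit, reached 34.1 and 36.8 CPM (3.5) and Kcng2 was at 0 and 1.53, 15 were higher and 12 lower (17.4% and 12.3%). In cluster 7, where Kcnk12 reached 91.7 and 122 CPM (1.84), 7 were higher and 14 lower (13.1% and 9.70%).

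**Figure D5:**
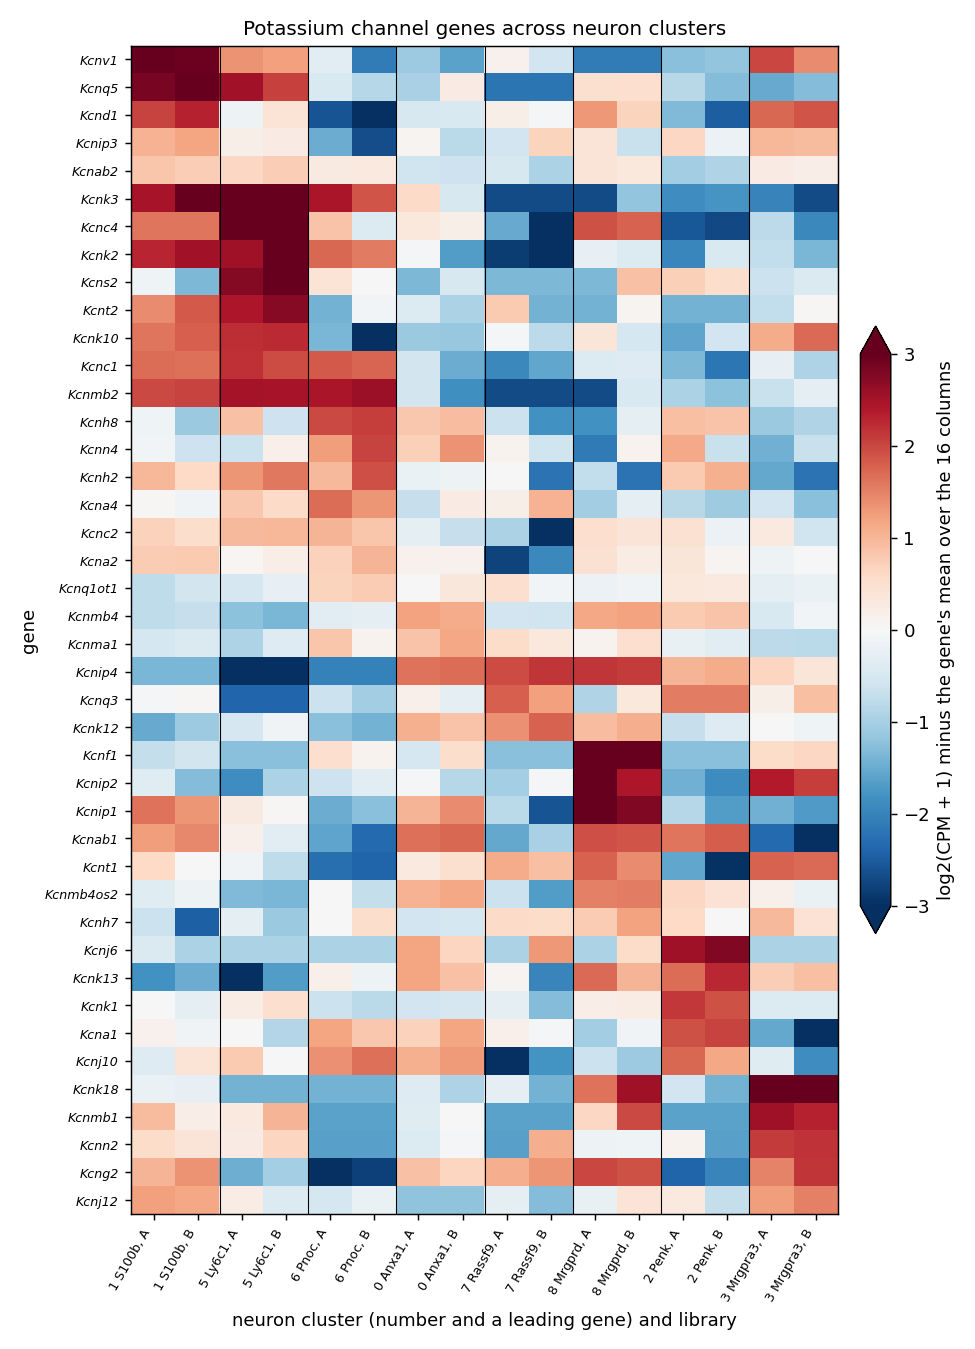
Level of 42 potassium channel genes (rows) in 8 neuron clusters and both libraries (columns), as log2(CPM + 1) minus the gene's mean over the 16 columns. Red is above and blue below the mean, the colours stop at 3, and the libraries of a cluster lie side by side: Kcnk3 and Kcnc4 are red in clusters 1 and 5, Kcnip4 in 0, 7 and 8, and Kcnk18 in 3.

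In fibroblasts 2 genes reached 10 CPM in both libraries, Kcnk2 and the non-coding Kcnq1ot1. Kcnk2 stood at 38.2 CPM in A and 47.4 in B against 8.15 and 7.85 in resting glia (log2 fold change 2.69, standard error 0.166, edgeR adjusted p = 7.09e-33), near the 33.7 and 35.7 of neurons. Kcns3 (5.19 and 12 CPM), Kcnab1 (8.49 and 7.01), Kcnd3, an A-type channel (4.72 and 7.42), and Kcne4, a small auxiliary subunit, were low but above resting glia. The class also carried markers of pericytes, with Rgs5 at 13.2 and 7.42 CPM and Acta2 at 99.1 and 57.7, and of endothelial cells, with Cdh5 at 50.9 and 52.8, and their part in the levels of Kcnj8, Kcnk2 and the other genes was not tested. The pericyte list summed to 193 and 136 CPM in fibroblasts against 78.3 and 74.9 in resting glia, and the endothelial list to 81.6 and 87.9 against 13.7 and 15. Kcnj10, Kcna1 and Kcna2 were at 3.83, 6.66 and 7.07 CPM, or 2.67%, 2.99% and 2.99% of the resting glial level, beside 3.57% for Sox10. Of the 63 genes 14 were higher and 20 lower (background 25.8% and 26.1%, or 22.9% and 25.9% of genes not used to draw the clusters). The median log2 fold change was -0.43, against -0.07 over all genes tested. Many of the 63 genes are highest in neurons, so this median takes in genes with low counts in both fibroblasts and glia.

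In macrophages 2 genes, both two-pore channels, were higher than in resting glia. Kcnk13 stood at 33.3 CPM in A and 45.8 in B against 7.99 in both libraries of resting glia (log2 fold change 2.63, standard error 0.338, edgeR adjusted p = 2e-11), and it is also known as a channel of microglia. It was not limited to macrophages, with 16.5 and 17.6 CPM in neurons and 35.2 and 53.8 in neuron cluster 2. Kcnk6 had 19 UMIs in all cells and stood at 11.9 and 4.17 CPM (5 and 2 UMIs) in macrophages, against 0.237 and 0.22 in resting glia (5.30, 1.251, adjusted p = 0.000272). No other tested gene was higher and 9 were lower (background 14.5% higher and 14.4% lower, or 12.1% and 13.1% of genes not used to draw the clusters), with a median of -1.72 against -0.21 over all genes tested. Kcnj10, Kcna1 and Kcna2 were at 17.3%, 27.8% and 22.7% of the resting glial level, beside 18.5% for Sox10. With 83 cells, 52 of the 63 tested genes had no call. Many of the 63 genes are highest in neurons, so the median takes in genes with low counts in both macrophages and glia.

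Other genes of potassium handling, a list of 44 that holds pumps, cotransporters, gap junctions and scaffolds, were tested in the same fit. Of 37 tested, 20 were higher and 16 lower in neurons, with the pump regulator Fxyd2 at 1570 CPM against 23.2 in resting glia (6.11). Cntn2 and Dpp6, partners of Kcna and Kcnd channels, were higher too (7.35 and 6.66). The gap junction gene Gjc3 stood at 189 CPM in resting glia and 12.3 in neurons. In dividing glia 5 were higher and 13 lower, among them Gja1, the main gap junction gene of satellite glia (0.70), and Ank3, an anchor of axonal channels (-1.04). In fibroblasts 5 were higher and 17 lower, and in macrophages 5 and 13. The shares of all genes called in these comparisons are those given above for the channels.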

How the data were processed

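Cultured mouse DRG cells were measured with the 10x Chromium v3 kit in libraries A and B. The files deposited by the authors hold unnormalised UMI counts for each gene in each barcode. The submitters' notes name Cell Ranger 3.0.2 and mm10, whereas the matrices carry software version 3.1.0. Whether counting used strand is not given in the sources used here.

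Barcodes needed 200 genes or more, with mitochondrial UMIs not above 10%, and Seurat 5.3.0 under R 4.3.3 grouped them (2000 variable genes without the potassium channel and handling genes, 20 dimensions, resolution 0.18, neurons alone at 0.3). Classes were named from marker lists. A glial cluster was dividing when at least 5 of 95 cell cycle genes were among its 50 leading genes. The neuron resolution and the Fabp7 limit of 500 CPM were chosen after seeing the data. The potassium channel genes and lists were chosen with earlier results of these data known. Scrublet (scanpy 1.11.5, expected rate 0.05) called 0 of 5175 and 4 of 5773 barcodes, which is too few to have worked, so doublets were not removed.

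Sums of counts per class and library went into the quasi-likelihood test of edgeR 4.0.16, with TMM factors, filterByExpr and a term for library. The fit left 4 residual degrees of freedom (7 among neuron clusters and 4 among glial clusters), and the Benjamini-Hochberg adjusted p, taken over every gene tested, had to be below 0.05. Clusters and tests use the same cells, and the fits against resting glia share those cells. The edgeR step was tested on simulated data. Each library holds all classes, which is why library is a block. Replicates differed by more than sampling noise (chi-square per degree of freedom 1.29 to 2.19). Named genes were Kcnj10, the genes past the threshold that changed alike in both libraries and reached 10 CPM (up to 15 per direction between classes, 6 between clusters), the 10 highest per class, up to 4 handling genes per direction, and genes without a UMI. Others, such as Kcnn3, Kcnab3, Kcnj16, Kcnj9, Kcna3, Kcna5, Kcnq1, Kcnk6, Kcnj8 and Kcne4, were named after their values were seen. Alternatives were DESeq2 1.42.0, RLE scaling, no filter on low counts, no block, other cell limits, resolution and thinning, and leaving out a library. Promoters came from RefSeq (GRCm38.p6), coordinates from GENCODE. Values of some genes of the channel and marker lists are not reported here. Figures were drawn with matplotlib 3.10.9.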

Additional observations from a re-analysis of the deposited data

Results flagged for a closer look

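The 3 potassium channel genes Kcna1, Kcnn4 and Kcnq1ot1 had unequal differences between dividing and resting cells in Fabp7-high and in Fabp7-low glia, by the edgeR test of the difference between the contrasts. For Kcna1 the log2 difference was -1 (standard error 0.077, adjusted p = 4.03e-24) and for Kcnn4 -0.47 (adjusted p = 0.00293). For Kcnq1ot1 it was 0.39 (standard error 0.088, adjusted p = 0.000478), with 0.12 in Fabp7-high and -0.27 in Fabp7-low glia. Each had the same direction in both libraries. At an unadjusted p under 0.05, 7 of the 27 tested genes differed.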

How the results depend on the processing

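The calls in dividing glia depended most on the processing. The 5 genes higher in dividing glia became 0 with DESeq2, 3 with RLE scaling, 2 without a filter on low counts and 3 with equal weight per glial cluster, and the cause was not tested. Within glia alike in Fabp7, an alternative chosen after seeing the data that tests 27 rather than 63 genes, 2 were higher in Fabp7-high and 3 in Fabp7-low glia. The 16 lower genes became 9 in Fabp7-low glia, and Kcnn4 turned from 0.19 to -0.01 in Fabp7-high glia. With DESeq2 the genes lower in neuron cluster 0 went from 10 to 4 and those in cluster 8 from 1 to 0 (1 at an unadjusted p under 0.05). The other counts stayed within 1.5 times the main one under every alternative run. Kcnq1ot1, which had no call in the pooled division contrast (-0.02), stood at 0.12 in Fabp7-high and -0.27 in Fabp7-low glia. With DESeq2 14 named values lost their call: Kcna6 and Kcnh1 in neurons, Kcnk5, Kcnmb4, Kcnn4 and Kcna4 in dividing glia, Kcnmb4os2 in macrophages, Kcnh2 between the resting clusters, Kcnc1, Kcnc2 and Kcnh7 in neuron cluster 0, Kcna4 in cluster 3, Kcnip2 in cluster 5 and Kcnma1 in cluster 7. Without the replicate block, in which library pairs the classes, all 26 counts stayed within that range (neurons 45 higher and 13 lower, dividing glia 5 and 15) and 154 named values kept their side of the threshold. Other limits on genes or mitochondrial UMIs, a resolution of 0.3, the potassium channel genes left among the variable genes, removal of the top 5% of Scrublet scores, and leaving out the 2 shallow neuron clusters (added after seeing the data) changed no call named here. Without library A or without library B the 154 named values kept their direction, with no residual degrees of freedom for a test. The naming rule asked for a like change in both libraries, so this outcome was largely fixed in advance and shows little. The Kcnj10 share of resting glia moved from 23.6% to 13.1% with 1000 UMIs per cell and 40.3% without thinning.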

Other observations

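Depth limits the low genes. A class sum of 0 UMIs allows up to 3 counts, and in macrophages, with 420713 and 480055 UMIs per library, a gene at a few CPM rests on few UMIs. Doublets and cells carrying RNA of another class remain. Clusters were drawn from the same cells as the tests. Culture cannot be set beside the intact ganglion here.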
